A study of Homo sapiens with 6 samples.

Results

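The 9 genes described here, MDM2, GDF15, SESN1, ZMAT3, TP53I3, RRM2B, BTG2, TP53INP1 and PLK3, are direct targets of the tumour suppressor p53. Each is a target by general knowledge of p53, and no threshold on a measured value was applied, but the choice was made with earlier results of these data known. They are 9 of the 58174 genes in the files, and all 9 passed the filter on low values. The samples were SiHa cells, an established line from a cervical squamous cell carcinoma that carries integrated HPV16. The OV-BRCA1 group (3 samples) was transfected with the plasmid GV230-BRCA1 and the NC group (3 samples) with the empty plasmid GV230, both with a Lipofectamine reagent, and both were harvested 48 h later for mRNA sequencing. The expression is transient, all samples come from 1 cell line, and cells that took up the plasmid were not separated from cells that did not. In such bulk samples fewer cells of one kind and less RNA per cell cannot be told apart. The comparison asks whether the mRNA of p53 targets differed with BRCA1 overexpression in cells whose p53 is under the control of a viral protein.

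The transcription factor p53 binds DNA as a tetramer at sites made of a pair of decameric half-sites and switches on genes that halt the cell cycle, repair DNA, limit oxidative damage and start apoptosis. In HPV16-positive cells the viral protein E6 recruits the cellular ubiquitin ligase E6AP, the product of UBE3A, to p53 and sends it to the proteasome. The BRCA1 protein repairs double-strand breaks by homologous recombination and can bind p53. Many p53 targets also answer to other factors, such as the stress factor ATF4 at GDF15 and the serum-response pathway at BTG2 and PLK3. Neither the p53 protein nor transcripts of the virus were measured in these files.

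The p53 response element was searched in the RefSeq promoter windows of GRCh38.p14, from 250 bases before to 50 bases after each start. The letters searched were 20 bases without a spacer whose half-sites both hold the core CNNG, with up to 3 mismatches elsewhere, and the element reads alike on both strands. In all 13 windows were matched for 7 of the 9 genes, and 3 of these genes had such a sequence. Of all 35116 windows 1.12% held one, and 0.285% held one with at most 2 mismatches. These are shares of windows and not of genes, and a gene can have several windows. Of 31 other p53 targets with a window, from a list given below, 6 had such a sequence. All these genes were picked as p53 targets, so no enrichment is read from the counts. The 3 sequences of the 9 genes are shown because they lie at starts whose transcripts are described below, and the core of each half-site is in capitals.
MDM2, chr12:68808923-68808942, plus strand, 2 mismatches: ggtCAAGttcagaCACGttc
GDF15, chr19:18386186-18386205, plus strand, 3 mismatches: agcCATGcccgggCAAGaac
SESN1, chr6:109009018-109009037, minus strand, 3 mismatches: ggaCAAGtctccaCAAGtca
The MDM2 match lay before the start of the gene's second promoter, 94 or 101 bases upstream depending on the RefSeq start. The SESN1 match lay 49 bases before an internal start, and the GDF15 match lay 28 bases after the RefSeq start, which is internal to the longer GDF15 span given below. The following run of 120 bases at the second promoter of MDM2 (chr12:68808897-68809016, plus strand) shows the match in its context, in capitals.
MDM2 second promoter: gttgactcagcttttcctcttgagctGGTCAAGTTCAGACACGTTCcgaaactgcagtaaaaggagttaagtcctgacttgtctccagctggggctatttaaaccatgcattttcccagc
A match in letters is a description of the sequence and was not tested for binding. Only matches to the letters searched are marked, so a p53 site that departs from the core CNNG would stay unmarked in the printed run. The windows of BTG2, PLK3, TP53I3 and ZMAT3 held no such letters, and matches outside the windows were not searched.

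The values were FPKM, fragments scaled to transcript length and to the mapped fragments of the sample, summed over the transcripts of each gene. BRCA1 stood at 34.9 to 40.8 FPKM in the OV-BRCA1 samples and at 14.9 to 21.7 FPKM in the NC samples. The keratins KRT7, KRT8, KRT17 and KRT18 and CDKN2A, which is high in HPV-driven carcinoma, were abundant in all samples, whereas KRT5 and KRT19 did not reach the filter and CDH1 stood at 0.170 to 0.896 FPKM. The abundant markers moved both ways. KRT17 was lower in OV-BRCA1 samples (log2 fold change -0.48, adjusted p = 0.0026), and KRT18 (0.39, adjusted p = 9.8e-04) and KRT8 (0.195, adjusted p = 0.028) were higher. KRT7 and CDKN2A had overlapping groups. EPCAM was at 5.93 to 7.65 FPKM in OV-BRCA1 samples and 2.11 to 3.01 FPKM in NC samples (log2 fold change 1.12, adjusted p = 0.00142). Of 8 markers of other cell types 6 were under the filter, with PTPRC and VWF at 0 in all samples. PECAM1 passed it at 0.629 to 1.45 FPKM with overlapping groups, and CD68 passed it at 22.2 to 29.4 FPKM in OV-BRCA1 samples and 2.74 to 4.17 FPKM in NC samples. Mitochondrial transcripts held 14.8 to 17.2% of the summed FPKM in the OV-BRCA1 group and 21.0 to 23.2% in the NC group, and the part of CD68, EPCAM and mitochondrial transcripts in the results below was not tested. Scaling to nuclear protein-coding genes changed no call among the 9 genes.

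The 9 genes did not move as a block. GDF15 rose, ZMAT3, TP53I3, TP53INP1 and BTG2 fell, and MDM2, SESN1, RRM2B and PLK3 did not pass the test. A gene is called higher or lower here when the Benjamini-Hochberg adjusted p of limma's moderated test on log2(FPKM + 1), adjusted over all 16321 tested genes, is below 0.05. Of all tested genes 35.3% were called, 16.4% as higher and 18.9% as lower, so 1 higher and 4 lower among 9 is read against that background. The groups did not overlap in 5 of the 9 genes, against 50.8% of all genes. Over the 9 genes the log2 fold change had a median of -0.38 and a range from -0.88 to 1.31, against a median of -0.04 over all tested genes. Only GDF15 among them also passed an absolute log2 fold change of 1, a mark that 3.99% of all genes passed.

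**Figure D1:**
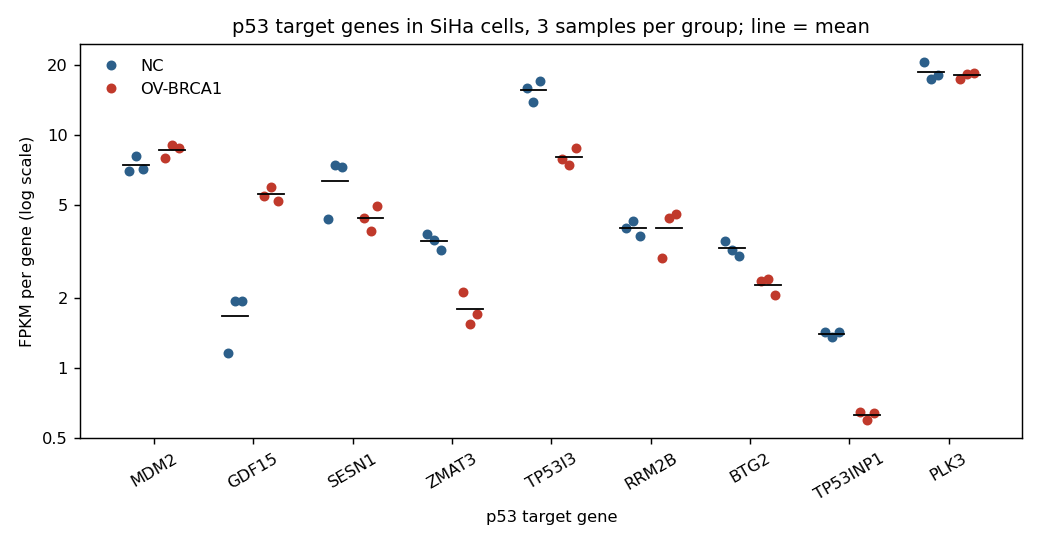
FPKM per gene (log scale) of the 9 p53 target genes, with 1 point for each of the 3 OV-BRCA1 and 3 NC samples and a line at the mean of each group. GDF15 is higher in every OV-BRCA1 sample, ZMAT3, TP53I3, BTG2 and TP53INP1 are lower in every OV-BRCA1 sample, and the groups overlap in MDM2, SESN1, RRM2B and PLK3.

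FPKM is per length, so levels can be set side by side across genes, here as sums over all transcript types. In the NC group PLK3 stood highest at 18.7 FPKM, above TP53I3 at 15.5 FPKM, and the samples of these genes did not overlap. In protein-coding transcripts alone PLK3 stood at 1.51 FPKM there, below TP53I3 at 12.3 FPKM and MDM2 at 5.05 FPKM. MDM2 at 7.42 and SESN1 at 6.36 FPKM came next and overlapped each other. RRM2B at 3.97, ZMAT3 at 3.50 and BTG2 at 3.26 FPKM followed, with each neighbour overlapping the next, and GDF15 at 1.67 and TP53INP1 at 1.40 FPKM were lowest and overlapped. In the OV-BRCA1 group MDM2 and TP53I3 overlapped below PLK3, and GDF15 stood above SESN1, RRM2B, BTG2 and ZMAT3. No OV-BRCA1 sample of GDF15 fell below 5.20 FPKM, and TP53INP1 remained lowest there.

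MDM2 (ENSG00000135679, chr12:68808176-68850686, plus strand) encodes the ubiquitin ligase that degrades p53 in most cells and is the feedback arm of the pathway. Its FPKM was 7.92, 9.02 and 8.78 in the OV-BRCA1 samples and 7.0, 8.14 and 7.13 in the NC samples. OV-BRCA1 replicate 1 lay below NC replicate 2, so the groups overlapped. The log2 fold change was 0.19 (SE 0.086, 95% interval -0.02 to 0.39, adjusted p = 0.144). A length-weighted sum, which multiplies each transcript's FPKM by its length in kilobases to give the share of fragments per gene and was chosen after seeing the data, gave 65.3, 64.7 and 60.8 against 50.9, 51.3 and 59.9. On that scale the groups did not overlap and the call changed (log2 fold change 0.23, adjusted p = 0.0467).

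GDF15 (ENSG00000130513, chr19:18374731-18389176, plus strand) encodes a secreted cytokine of the TGF-beta superfamily that is released by stressed cells. Its FPKM was 5.47, 5.99 and 5.20 in the OV-BRCA1 samples and 1.16, 1.93 and 1.93 in the NC samples. The lowest OV-BRCA1 sample was well above the highest NC sample, and the ratio of the means was 3.32. The log2 fold change was 1.31 (SE 0.142, 95% interval 0.96 to 1.65, adjusted p = 0.00108). Leaving out each sample in turn gave 1.16 to 1.38, called each time.

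TP53I3 (ENSG00000115129, chr2:24077433-24085861, minus strand) encodes PIG3, a quinone oxidoreductase tied to p53-dependent oxidative stress. Its FPKM was 7.86, 7.43 and 8.73 in the OV-BRCA1 samples and 15.9, 13.8 and 16.9 in the NC samples. Every OV-BRCA1 sample was lower than every NC sample by a wide margin. TP53I3 fell by 0.88 on the log2 scale (SE 0.098, 95% interval -1.11 to -0.64, adjusted p = 0.00118). On its most abundant transcript alone the log2 fold change was -0.59 and no longer called (adjusted p = 0.228).

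SESN1 (ENSG00000080546, chr6:108986437-109094819, minus strand) encodes sestrin 1, which restrains mTORC1 signalling and supports antioxidant defence. Its FPKM was 4.37, 3.87 and 4.96 in the OV-BRCA1 samples and 4.35, 7.45 and 7.28 in the NC samples. NC replicate 1 lay with the OV-BRCA1 samples, while the other NC samples lay above all of them. The log2 fold change was -0.42 (SE 0.194, 95% interval -0.89 to 0.05, adjusted p = 0.142). Without NC replicate 1 it was -0.64 and called (adjusted p = 0.0142), so that library decides the call.

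RRM2B (ENSG00000048392, chr8:102204502-102239118, minus strand) encodes p53R2, the ribonucleotide reductase subunit that supplies deoxynucleotides for DNA repair outside S phase. Its FPKM was 2.95, 4.40 and 4.56 in the OV-BRCA1 samples and 3.97, 4.25 and 3.69 in the NC samples. The means of both groups were 3.97 FPKM, and the OV-BRCA1 samples spread on either side of the NC samples. The log2 fold change was -0.02 (SE 0.148, 95% interval -0.37 to 0.34, adjusted p = 0.945).

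ZMAT3 (ENSG00000172667, chr3:179017223-179072279, minus strand) encodes a zinc finger RNA-binding protein that acts on splicing and mRNA stability. Its FPKM was 2.12, 1.54 and 1.71 in the OV-BRCA1 samples and 3.76, 3.53 and 3.22 in the NC samples. All OV-BRCA1 samples were lower, and ZMAT3 fell by 0.69 on the log2 scale (SE 0.108, 95% interval -0.95 to -0.43, adjusted p = 0.00423).

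TP53INP1 (ENSG00000164938, chr8:94925972-94949411, minus strand) encodes a stress protein that promotes p53 phosphorylation and takes part in autophagy. Its FPKM was 0.647, 0.601 and 0.640 in the OV-BRCA1 samples and 1.42, 1.36 and 1.43 in the NC samples. The samples of each group lay close together, and the NC mean was 2.23 times the OV-BRCA1 mean. At this low level the pseudocount shrinks the difference. TP53INP1 fell by 0.56 on the log2(FPKM + 1) scale (SE 0.078, 95% interval -0.75 to -0.37, adjusted p = 0.00271), by 1.04 with a pseudocount of 0.1 and by 0.97 on the length-weighted sum.

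BTG2 (ENSG00000159388, chr1:203305491-203309602, plus strand) encodes an antiproliferative partner of the CCR4-NOT deadenylase. Its FPKM was 2.36, 2.41 and 2.06 in the OV-BRCA1 samples and 3.51, 3.22 and 3.03 in the NC samples. The groups did not overlap, and BTG2 fell by 0.38 on the log2 scale (SE 0.089, 95% interval -0.59 to -0.16, adjusted p = 0.0197). The call was lost without NC replicate 1 (-0.34, adjusted p = 0.0624), NC replicate 2 (-0.38, adjusted p = 0.0531) or OV-BRCA1 replicate 3 (-0.33, adjusted p = 0.0578).

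PLK3 (ENSG00000173846, chr1:44800225-44805990, plus strand) encodes a stress-activated polo-like kinase that can phosphorylate p53. Its FPKM was 17.4, 18.3 and 18.4 in the OV-BRCA1 samples and 20.5, 17.4 and 18.0 in the NC samples. The groups overlapped, with a log2 fold change of -0.04 (SE 0.076, 95% interval -0.23 to 0.14, adjusted p = 0.686). With protein-coding transcripts only, a setting chosen after seeing the data, PLK3 was called higher (log2 fold change 0.64, adjusted p = 0.0108), and its transcripts are described below.

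**Figure D2:**
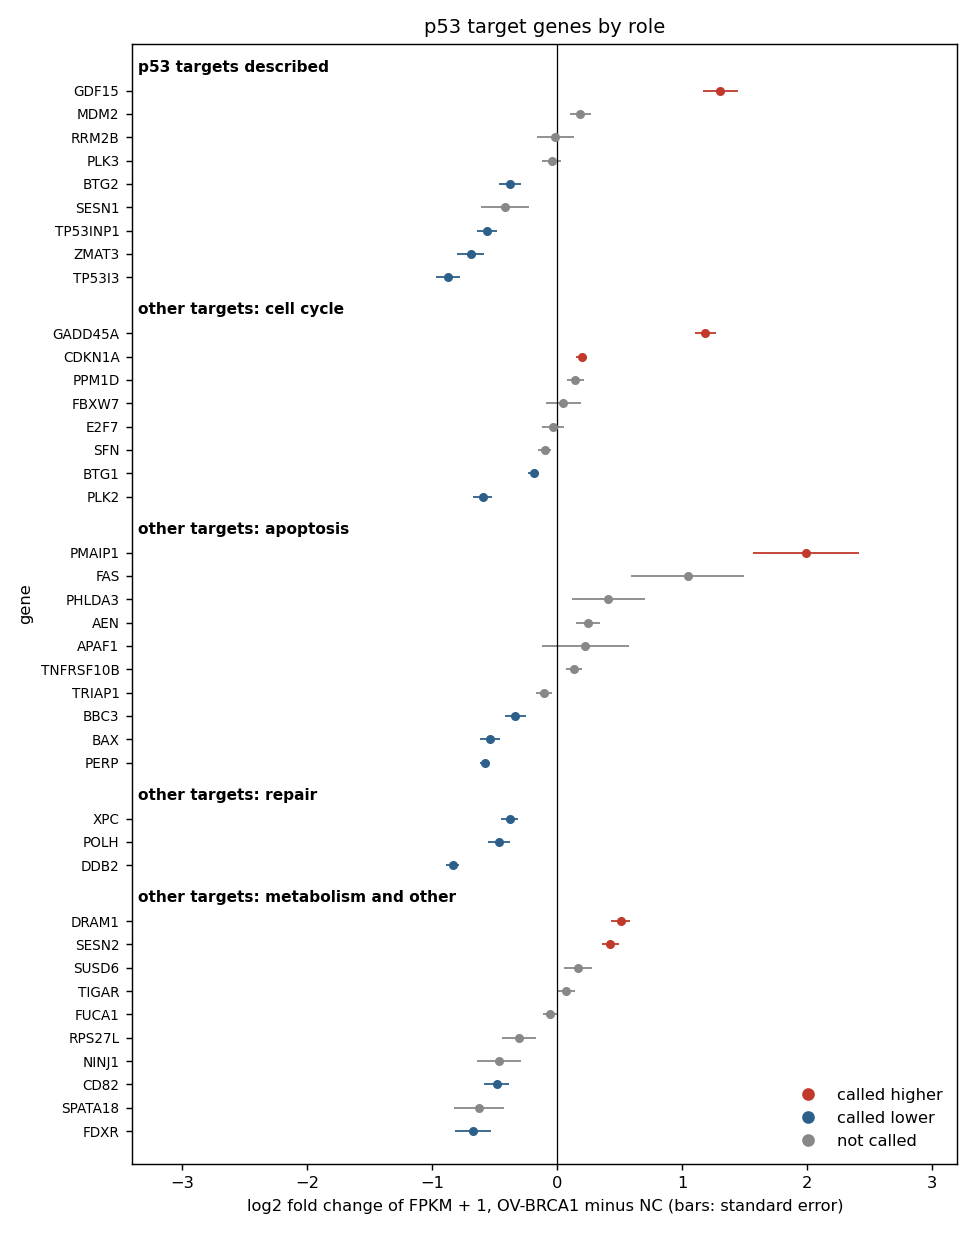
Log2 fold change of FPKM + 1 (OV-BRCA1 minus NC, bars for the standard error) for the 9 genes and for the other tested p53 targets by role, coloured by whether the gene was called higher, lower or not at all. GDF15 at 1.31 lies apart from the other 8 of the 9 genes, which range from -0.88 to 0.19.

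The deposited values are per transcript, so the genes can be followed within their isoforms. Transcripts of a gene share bases, and short reads from those stretches divide between them by estimate, so a transcript is less certain than its gene. GDF15 rested on 1 transcript, GDF15-201, with 97.7% of the gene's FPKM, at 5.40, 5.83 and 4.94 FPKM in the OV-BRCA1 samples and 1.16, 1.91 and 1.93 FPKM in the NC samples. RRM2B-201 held 81.0% of RRM2B, at 2.69, 3.31 and 2.88 FPKM in the OV-BRCA1 samples and 3.47, 3.57 and 3.39 FPKM in the NC samples. These samples did not overlap, unlike those of the whole gene, but the transcript was not called (log2 fold change -0.18, adjusted p = 0.252).

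MDM2 has 34 transcripts in the files. The 7 that start at the first promoter, which is active without p53, held 60.2% of the gene. They summed to 5.22, 5.24 and 5.20 FPKM in the OV-BRCA1 samples and 4.05, 4.37 and 4.80 FPKM in the NC samples, with no overlap. The 5 transcripts that start at the second promoter, the p53-responsive one whose sequence is printed above, held 1.73%. They summed to 0.0728, 0.173 and 0.0462 FPKM in the OV-BRCA1 samples and 0, 0.427 and 0.113 FPKM in the NC samples, so both groups were close to 0 and overlapped. MDM2-202, with 55.8% of the gene, stood at 5.05, 4.87 and 4.61 FPKM against 3.83, 3.82 and 4.60 FPKM and was not called (log2 fold change 0.20, adjusted p = 0.211). It starts at the first promoter and is 12633 bases long, whereas the longest second-promoter transcript annotated has 2523 bases. Reads from exons that both promoters share can thus be assigned to MDM2-202. These shares therefore follow the annotation and do not measure the use of either promoter. MDM2-231, with 10.3%, was at 1.01, 0.514 and 1.06 FPKM against 0.798, 1.13 and 0.422 FPKM, with overlap. Starts in exon 2 held 13.3% and starts farther downstream 24.7%, and the exon 2 sum ran from 0.0298 to 2.21 FPKM in the OV-BRCA1 samples and from 1.00 to 1.40 FPKM in the NC samples.

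SESN1-201, whose start is next to the printed SESN1 match, was at 0, 0.326 and 0.579 FPKM in the OV-BRCA1 samples and at 0, 1.10 and 0 FPKM in the NC samples. It was thus listed at 0 in 1 OV-BRCA1 sample and 2 NC samples. SESN1-202, with 34.9% of the gene, stood at 1.73, 1.07 and 1.86 FPKM against 1.29, 2.82 and 2.52 FPKM, and here again NC replicate 1 was low. SESN1-204, with 24.0%, was at 1.35, 1.28 and 0.782 FPKM against 0.934, 1.35 and 2.06 FPKM. The retained-intron transcripts SESN1-203, SESN1-206 and SESN1-207 held 11.1 to 11.7% each and lay between 0.0281 and 1.14 FPKM, and the groups overlapped in each of these 4 transcripts.

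PLK3-201, the only protein-coding transcript of PLK3, held 12.1% of the gene and was at 2.79, 3.23 and 2.72 FPKM in the OV-BRCA1 samples and 1.80, 1.20 and 1.54 FPKM in the NC samples. PLK3-204, a transcript not annotated as protein-coding that shares 2329 of the 2492 bases of PLK3-201, moved the other way, at 3.13, 3.44 and 2.57 FPKM against 3.64, 4.46 and 4.22 FPKM. Their sum was 5.92, 6.66 and 5.29 FPKM in the OV-BRCA1 samples and 5.44, 5.66 and 5.76 FPKM in the NC samples, so the sum overlapped where each transcript did not. PLK3-206 held the largest share, 42.3%, at 8.19, 7.80 and 9.66 FPKM against 7.51, 6.31 and 7.04 FPKM. PLK3-205, with 12.4%, was at 1.68, 1.79 and 1.80 FPKM against 4.13, 2.42 and 1.77 FPKM, and NC replicate 3 lay among the OV-BRCA1 samples.

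In TP53INP1 both transcripts share 5593 of 5638 bases and traded places between samples. TP53INP1-201 was at 0.476, 0.391 and 0.640 FPKM in the OV-BRCA1 samples and 1.42, 0 and 0.586 FPKM in the NC samples. TP53INP1-202 was at 0.171, 0.210 and 0 FPKM against 0, 1.36 and 0.847 FPKM. Only their sum was steady, and on the most abundant transcript alone the log2 fold change was -0.06 (adjusted p = 0.917).

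The fall of ZMAT3 was seen in ZMAT3-201, which held 75.9% of the gene, at 1.32, 1.53 and 1.24 FPKM in the OV-BRCA1 samples and 2.83, 2.70 and 2.43 FPKM in the NC samples. ZMAT3-203, with 20.9%, was at 0.528, 0.0157 and 0.457 FPKM against 0.870, 0.799 and 0.651 FPKM, also without overlap. TP53I3 was lower both in its protein-coding transcripts, 7.17 ± 1.31 against 12.3 ± 1.26 FPKM (SD, n = 3 each), and in TP53I3-205, at 1.497, 0.953 and 0 FPKM against 3.03, 2.96 and 3.73 FPKM. Its largest transcripts overlapped between the groups, TP53I3-201 (29.4%) at 1.44, 2.25 and 4.33 FPKM against 4.39, 4.01 and 4.38 FPKM and TP53I3-202 (27.9%) at 3.78, 2.44 and 2.05 FPKM against 3.93, 3.86 and 3.70 FPKM. TP53I3-203 was at 0.847, 0.937 and 1.81 FPKM against 2.07, 1.93 and 2.49 FPKM, and TP53I3-204 at 0.294, 0.854 and 0.499 FPKM against 2.50, 1.03 and 2.53 FPKM, both without overlap. BTG2-201, with 85.3% of the gene, was at 1.97, 2.23 and 1.66 FPKM against 3.12, 2.66 and 2.52 FPKM, without overlap but not called (log2 fold change -0.35, adjusted p = 0.0999). BTG2-202, with 14.7%, was at 0.391, 0.181 and 0.404 FPKM against 0.397, 0.560 and 0.514 FPKM, with overlap.

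**Figure D3:**
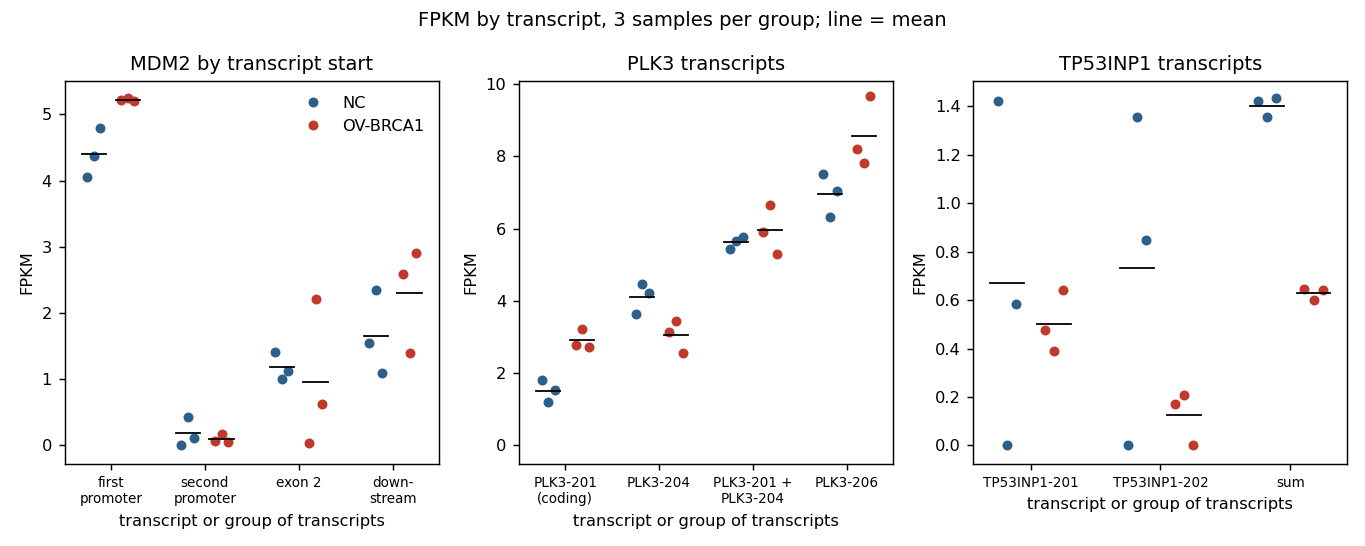
FPKM of transcripts or groups of transcripts of MDM2, PLK3 and TP53INP1, with 1 point per sample, 3 per group, and a line at each mean. The first-promoter transcripts of MDM2 are higher in every OV-BRCA1 sample, its second-promoter transcripts are at 0.427 FPKM or below in every sample, PLK3-201 and PLK3-204 differ in opposite directions, and the sum of the TP53INP1 transcripts varies less than either transcript.

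Exons of 4 of the 9 genes overlap exons of another gene on the opposite strand, over 133 and 785 of 13284 bases in MDM2, with a different gene each, 363 of 5121 in SESN1, 80 of 2312 in TP53I3 and 78 of 3479 in PLK3. Exons of MDM2 also overlap another gene on its own strand over 439 bases. The sources used here do not state whether strand was used, so reads in these stretches cannot be assigned to one gene with certainty.

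A further list of 34 established p53 targets set the 9 genes in their pathway. Of the 31 tested, 5 were higher, 10 were lower and 16 were not called, with a median log2 fold change of -0.06 and a range from -0.84 to 1.99. Over all tested genes 16.4% were higher and 18.9% lower. The groups did not overlap in 20 of the 31, against 50.8% of all genes. GADD45A, a stress sensor that binds PCNA and slows the cell cycle, was at 33.9, 37.4 and 35.0 FPKM in the OV-BRCA1 samples and 16.1, 15.8 and 13.4 FPKM in the NC samples. Its log2 fold change was 1.18 (adjusted p = 2.07e-04). PMAIP1, which encodes the BH3-only protein NOXA, was at 12, 23.8 and 25.3 FPKM against 3.97, 2.18 and 7.58 FPKM, a log2 fold change of 1.99 (SE 0.423, adjusted p = 0.0134) with wide spread in both groups.

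CDKN1A, which encodes the cyclin-dependent kinase inhibitor p21, is the best known p53 target. It was at 103, 104 and 99.8 FPKM in the OV-BRCA1 samples and 86.1, 89.8 and 92.2 FPKM in the NC samples. The rise was small, with a log2 fold change of 0.19 (adjusted p = 0.0204), and the call was lost in 4 of 6 fits that left out 1 sample and on the most abundant transcript (0.11, adjusted p = 0.912). DRAM1, a lysosomal autophagy protein, rose by 0.51 (adjusted p = 0.00353) and SESN2, the relative of SESN1, by 0.42 (adjusted p = 0.00531), both on the log2 scale.

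Among the 10 that fell, DDB2, the damage sensor of nucleotide excision repair, was at 16.5, 15.9 and 15.7 FPKM in the OV-BRCA1 samples and 30.1, 29.2 and 28.8 FPKM in the NC samples. On the log2 scale DDB2 fell by 0.84 (adjusted p = 1.23e-04). PERP, a tetraspan membrane protein of desmosomes and apoptosis, fell by 0.58 (adjusted p = 2.28e-04), and the kinase PLK2, a relative of PLK3, fell by 0.60 (adjusted p = 0.00194). On the most abundant transcript PLK2 stood at -4.20, and with protein-coding transcripts only DDB2 stood at -0.43, both still called. By role, the 3 genes listed under repair, DDB2, XPC and POLH, were all lower, XPC and POLH being named after their values were seen. That reading depends on how the roles were assigned. RRM2B, described above as serving DNA repair, was outside this repair list and was not called (log2 fold change -0.02). Of the 8 tested cell cycle genes 2 were higher and 2 lower, of the 10 apoptosis genes 1 was higher and 3 were lower, and of the 10 metabolic and other genes 2 were higher and 2 lower, beside 16.4% higher and 18.9% lower over all genes.

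Of the regulators of p53, 0 were higher, 2 lower and 14 not called of 16 tested, against 35.3% called over all genes. The 2 were CHEK2, a kinase that phosphorylates p53 after DNA damage (log2 fold change -0.26, adjusted p = 0.0404), and the acetyltransferase gene KAT5 (-0.20, adjusted p = 0.0416), and both calls were lost under several alternatives.

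UBE3A, the gene of E6AP, was at 10.9, 14.98 and 23.2 FPKM in the OV-BRCA1 samples and 13.1, 13.7 and 12.9 FPKM in the NC samples. Its log2 fold change was 0.22 (adjusted p = 0.518) and -0.05 without OV-BRCA1 replicate 3, the sample that stood apart. MDM4, the partner of MDM2 that masks the activation domain of p53, was at 3.65, 4.09 and 1.85 FPKM against 1.16, 3.73 and 1.74 FPKM, with a log2 fold change of 0.42 (adjusted p = 0.384) and overlapping groups. Leaving out NC replicate 1 gave 0.18, leaving out NC replicate 2 gave 0.74 and the length-weighted sum gave 0.86, none of them called.

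Relatives of the 9 genes within their families are mostly not classed as p53 targets. Of 16 tested, 4 were higher, 5 lower and 7 not called, with no overlap between the groups in 10, against 35.3% called and 50.8% without overlap over all genes. BTG3, a relative of BTG2, rose by 0.67 while BTG2 fell, and TOB2 of the same family rose by 0.34. TP53INP2, the autophagy relative of TP53INP1, fell by 0.38, and ZMAT5, a relative of ZMAT3, also fell by 0.38. The ZMAT5 call was lost without NC replicate 1 (-0.36, adjusted p = 0.0631) and without NC replicate 2 (-0.34, adjusted p = 0.0639). MDM4, SESN2, BTG1 and PLK2 stand in this list too. The differences between relatives and the 9 genes were not tested.

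GDF15 is shared with the ATF4 programme of the integrated stress response, and BTG2 and PLK3 with immediate early genes, so both lists were set beside them. Of 14 genes in the ATF4 list, which counts ATF4 itself beside its targets, all were tested. Of these 6, ATF4 among them, were higher and 4 lower, with a median log2 fold change of 0.14, where 16.4% of all genes were higher and 18.9% lower. The cystine transporter gene SLC7A11 rose by 1.00 (adjusted p = 2.47e-04), the pseudokinase gene TRIB3 by 0.75 and ATF4 itself by 0.53. In the same list ATF3, a stress factor that is also a p53 target, fell by 1.24, the mTORC1 inhibitor gene DDIT4 fell by 0.66 and the serine synthesis gene PHGDH fell by 0.49. With protein-coding transcripts only, the calls of ATF3 (log2 fold change -0.28, adjusted p = 0.738) and PHGDH (-0.22, adjusted p = 0.436) were lost. ATF4 lost its call on its most abundant transcript (2.51, adjusted p = 0.0642), and its log2 fold change was 0.29 on the length-weighted sum.

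Of 13 tested immediate early genes 1 was higher and 6 were lower, with a median log2 fold change of -0.28, beside the same shares of all genes and their median of -0.04. FOS fell by 2.13 (adjusted p = 3.88e-06), FOSB by 1.68 and EGR1 by 0.63 on the log2 scale, whereas IER3 rose by 1.04. The call of FOSB was lost on its most abundant transcript (log2 fold change -1.45, SE 1.13, adjusted p = 0.424). BTG2 at -0.38 lay near that median and PLK3 at -0.04 did not pass the test. The part of these programmes in the values of the 9 genes was not tested.

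**Figure D4:**
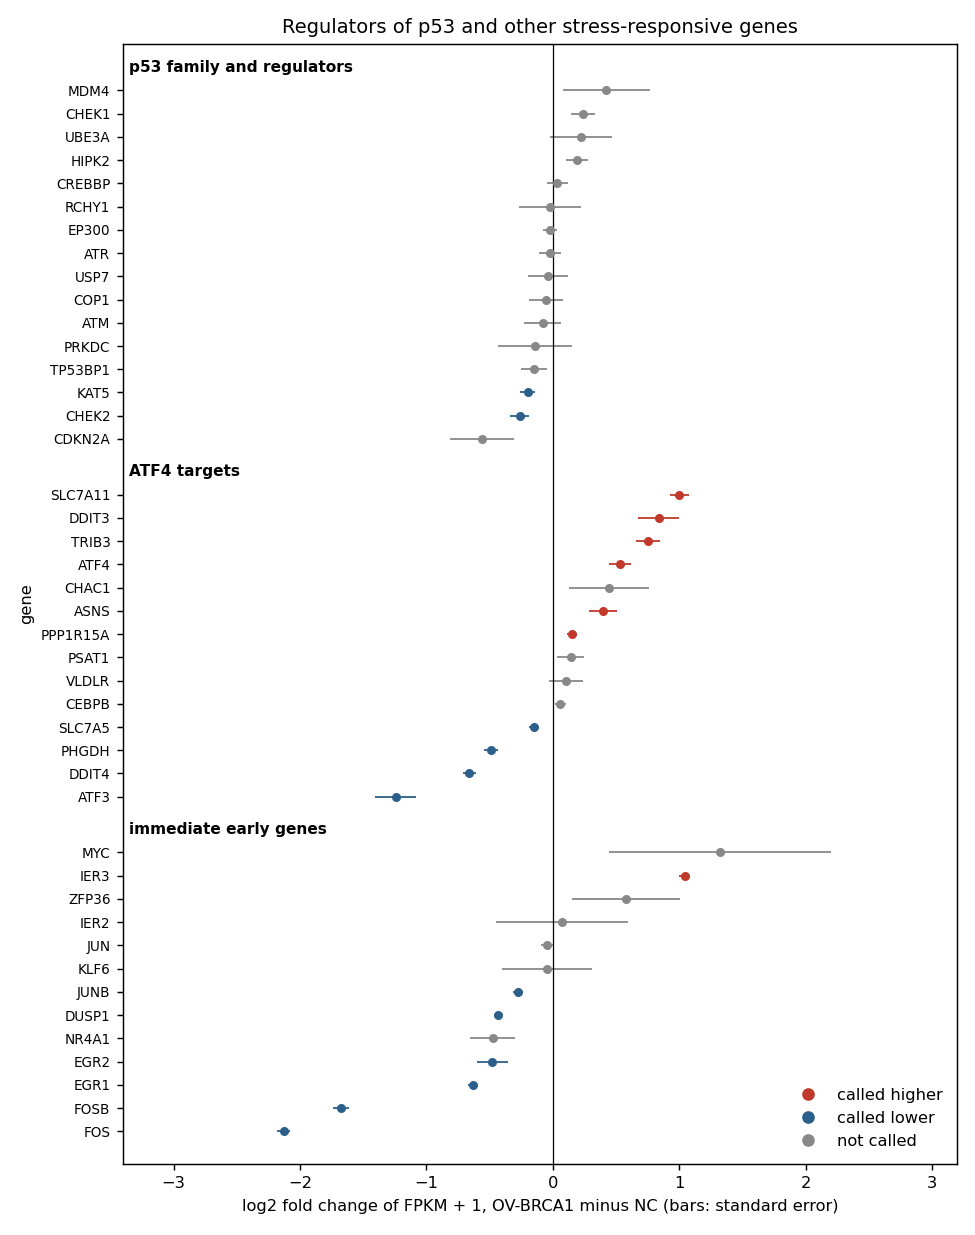
Log2 fold change of FPKM + 1 (OV-BRCA1 minus NC, bars for the standard error) for the tested p53 regulators, ATF4 and its targets, and immediate early genes, coloured by call. CHEK2 at -0.26 and KAT5 at -0.20 are the ones called among the 16 regulators shown, while calls in the other lists run from FOS at -2.13 to IER3 at 1.04.

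**Figure D5:**
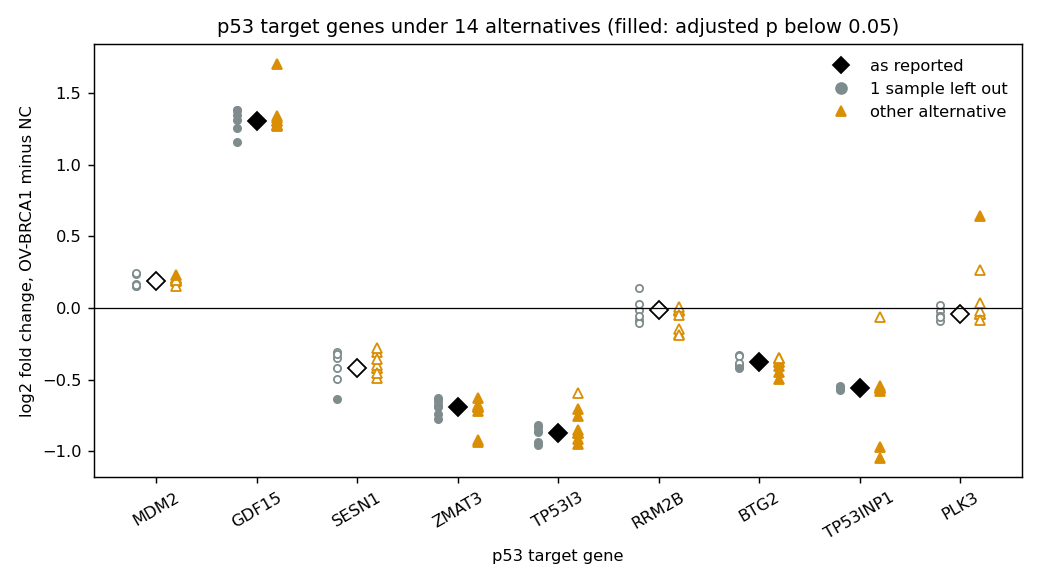
Log2 fold change (OV-BRCA1 minus NC) of each of the 9 genes as reported (diamonds), with 1 sample left out (circles) and under the other alternatives (triangles), 14 alternatives in all, with filled points where the adjusted p was below 0.05. GDF15 is above 0 and called in every setting, while PLK3 and RRM2B lie on both sides of 0.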

How the data were processed

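mRNA of 3 OV-BRCA1 and 3 NC samples was sequenced, and groups and replicate numbers were taken from the labels. The study calls the samples biological replicates, but the labels name no separate cultures, so p-values measure the spread between these samples only. The deposited FPKM values came from reads that the authors had cleaned of adapters and low-quality bases. The submitters' processing notes name FastQC, HISAT2 and hg38. The counting tool and the use of strand are not given in the sources used here. The files used hold FPKM only, whole reads could not be recovered from the low FPKM values, and the fragments behind each value are therefore not known, so no counting interval is given. The relative depth estimated from low values was 0.834 to 1.17 times the mean. It rests on that same attempt, in which 35.4 to 40.3% of the low values lay within 0.1 of a whole fragment, so it is approximate.

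FPKM of 199167 transcripts was summed per gene. Names, positions and transcript types came from GENCODE release 29 (198868 transcripts), and promoter windows from RefSeq, GRCh38.p14. The 16321 genes that reached 0.5 FPKM in 3 or more samples were tested with limma 3.58.1 in R 4.3.3 (trend, not robust) on log2(FPKM + 1) of the deposited values, with Benjamini-Hochberg adjustment over all of them. A fold change on this scale understates the change of low genes. The smallest p of an exact permutation test of 3 against 3 is 0.1, so none was used. The script was tested on simulated data.

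The 9 genes and the 8 gene lists were chosen with earlier results of these data known. The genes named were the 9, BRCA1, MDM4, UBE3A, CDKN1A, up to 3 per list and direction with the smallest adjusted p, and every called list gene past an absolute log2 fold change of 1. Transcripts with at least 10% of a gene were named, and SESN1-201 and marker genes were named after their values were seen. A gene covered by this rule and by the list of regulators was left out and is not reported. The 14 alternatives were a pseudocount of 0.1, no filter, the replicate number as a block, scaling by median of ratios or to nuclear protein-coding genes, the most abundant transcript, each sample left out, and, chosen after seeing the data, protein-coding transcripts only and a length-weighted sum (FPKM times transcript length in kilobases).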

Additional observations from a re-analysis of the deposited data

How the results depend on the processing

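GDF15 was called higher, and ZMAT3 lower, under all 14 alternatives. The count of the 9 genes called higher (1 as reported) became 2 with protein-coding transcripts only, which added PLK3, and 2 on the length-weighted sum, which added MDM2. The count called lower (4) became 1 on the most abundant transcript, which leaves out the other isoforms. BTG2 also lost its call without the filter on low values (adjusted p = 0.0504) and with protein-coding transcripts only (adjusted p = 0.0581). RRM2B changed sign to 0.005 under median-of-ratios scaling and ranged from -0.105 to 0.142 when each sample was left out. PLK3 changed sign to 0.262 on the most abundant transcript, 0.643 with protein-coding transcripts only and 0.033 on the length-weighted sum, and ranged from -0.09 to 0.023 when each sample was left out. Of the other p53 targets 8 in place of 5 were higher on the length-weighted sum, and 5 in place of 10 were lower on the most abundant transcript. The count of regulators called (2) was 0 with the replicate block, 0 under median-of-ratios scaling, 1 on the most abundant transcript, 1 with protein-coding transcripts only, 3 on the length-weighted sum and 0 to 1 when each sample was left out. CHEK2 changed sign to 0.041 on the most abundant transcript, and UBE3A ranged from -0.049 to 0.466 when each sample was left out. The causes were not tested. Over all genes, 3291 were called on the most abundant transcript and 3694 with protein-coding transcripts only, against 5764.

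Replicate numbers did not pair the samples, since deviations of same-numbered samples correlated at -0.024, 0.025 and 0.014. With the replicate block 4595 genes were called, the 5 calls among the 9 genes were kept (BTG2 adjusted p = 0.0443), and CDKN1A lost its call (adjusted p = 0.0619). With 3 samples a group and FPKM only, a gene not called is not shown to be unchanged, and isoform values rest on the authors' division of shared reads.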
